A study of Sus scrofa domesticus with 16 samples.

Results

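Splicing factors and heterogeneous nuclear ribonucleoproteins (hnRNPs) were examined in the adrenal gland of pigs with high and with low stress. Members were all genes whose symbol in the platform annotation begins with SRSF, SFRS, HNRNP, HNRP, SNRP, SF3A, SF3B, PRPF, U2AF or LSM, which gave 62 genes of the 6765 genes on the array with 1 symbol. The rule goes by names and not by measured values, though it was set with earlier results of these data known. Each gene is represented by its brightest probe set (a group of short probes for 1 transcript), judged by the mean log2 signal over the 16 arrays.

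Introns are removed from precursor RNA by the spliceosome, which is built from small nuclear ribonucleoproteins (snRNPs), particles of a short RNA with a ring of Sm or LSM proteins and further subunits. The U2 snRNP recognises the branch point of the intron with its SF3A and SF3B complexes, the U2AF heterodimer reads the 3′ splice site, and several PRPF proteins belong to the tri-snRNP or act in later steps. SR proteins bind exons and mostly favour their inclusion, while hnRNPs coat nascent RNA and often oppose inclusion, so that the balance of both shapes alternative splicing in every tissue.

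RNA had been extracted from the adrenal gland of 16 domestic pigs and each hybridised to 1 Affymetrix porcine genome array. The 8 animals labelled high stress came from a mixing treatment with high aggressiveness, and the 8 labelled low stress from one with low aggressiveness. By the series' own description, unacquainted pigs had been mixed and the groups were picked for a difference in aggressive behaviour and in plasma cortisol. Thus each group is a selection on these traits and every animal had been mixed; breed line, age, sex, time of sampling and any unmixed animals are not given in the sources used here. The gland was taken as a whole tissue with a steroid-producing cortex and a catecholamine-producing medulla, and genes of both were bright in each group. The mean log2 signal of 7 cortex markers lay between 12.43 and 12.91 in the low stress and between 12.59 and 12.87 in the high stress animals, and that of 6 chromaffin markers between 10.64 and 11.50 and between 10.81 and 11.57. In such bulk RNA, fewer cells of a type and less RNA per cell cannot be told apart.

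Before any result, a division of the arrays unknown to the labels has to be stated. The bacterial labelling control dap was dim on 8 arrays (mean signal 605, called low-spike) and bright on the other 8 (3588, called high-spike). Both kinds included 4 animals of either stress group. Array medians lay between 116 and 148. Precision is limited by how many arrays there are. For actin the 3′ signal over the 5′ signal, a measure of how far labelled RNA reaches towards its 5′ end, ranged from 9.97 to 21.9 on low-spike arrays and from 5.28 to 8.80 on high-spike arrays, without overlap. The GAPDH ratio averaged 1.38 and 1.51. The stress comparison was therefore also run with the set as a block. Differences within each set are given for some genes, and the sets themselves are compared after the stress groups.

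All 62 genes had a brightest probe set above the filter on low signal (a mean log2 of 6.15, a signal of 71.1). Their mean log2 signals ranged from 6.15 for U2AF2, which lay at the filter, to 13.14 for HNRNPA2B1. Signals of different probe sets do not rank transcripts, so levels are compared only within a gene. By role, the 62 were 11 SR proteins, 17 hnRNPs, 10 snRNP proteins, 9 U2 factors, 9 PRPF proteins and 6 LSM proteins. PRPF8 and U2AF1, both central to the reaction, were not analysed here.

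No splicing gene passed the test between high and low stress. With limma and Benjamini-Hochberg adjustment over 14399 probe sets, 0 of 62 members had an adjusted p under 0.05, where 0% of all probe sets did, and each member's adjusted p was 0.999. At an unadjusted p under 0.05 there was 1 member of 62, HNRNPC, against 3.01% of 5455 genes and 3.19% of probe sets. Of the 460 probe sets at that level 183 were higher and 277 lower in high stress, a split that was 240 and 183 after quantile normalization and 318 and 126 after median centring. With the spike-in set as a block, 1 probe set passed the adjusted threshold (0.00694%), and it was no member. Unadjusted p under 0.05 was then reached by 4 members of 62, against 6.2% of all genes and 6.38% of probe sets.

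The differences were small as well as uncalled. Members' log2 fold changes, given throughout as high minus low stress, ran from -0.27 to 0.48 with a median of 0.01, beside a median of 0.00 over all genes. Of the 62, 34 were higher and 28 lower, and of all genes 50.2% were higher. For 46 members the 95% interval lay within 0.5 log2 units (1.41-fold) of 0 on both sides, and for 59 within 1 unit. The share of all genes with an interval within 0.5 was 69.5%. The values of the 8 high stress animals overlapped those of the 8 low stress animals in all 62, where 0.0367% of all genes had groups that did not overlap. A difference of the same sign in both spike-in sets was found in 44 members of 62, and in 3174 of 5455 genes.

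**Figure D1:**
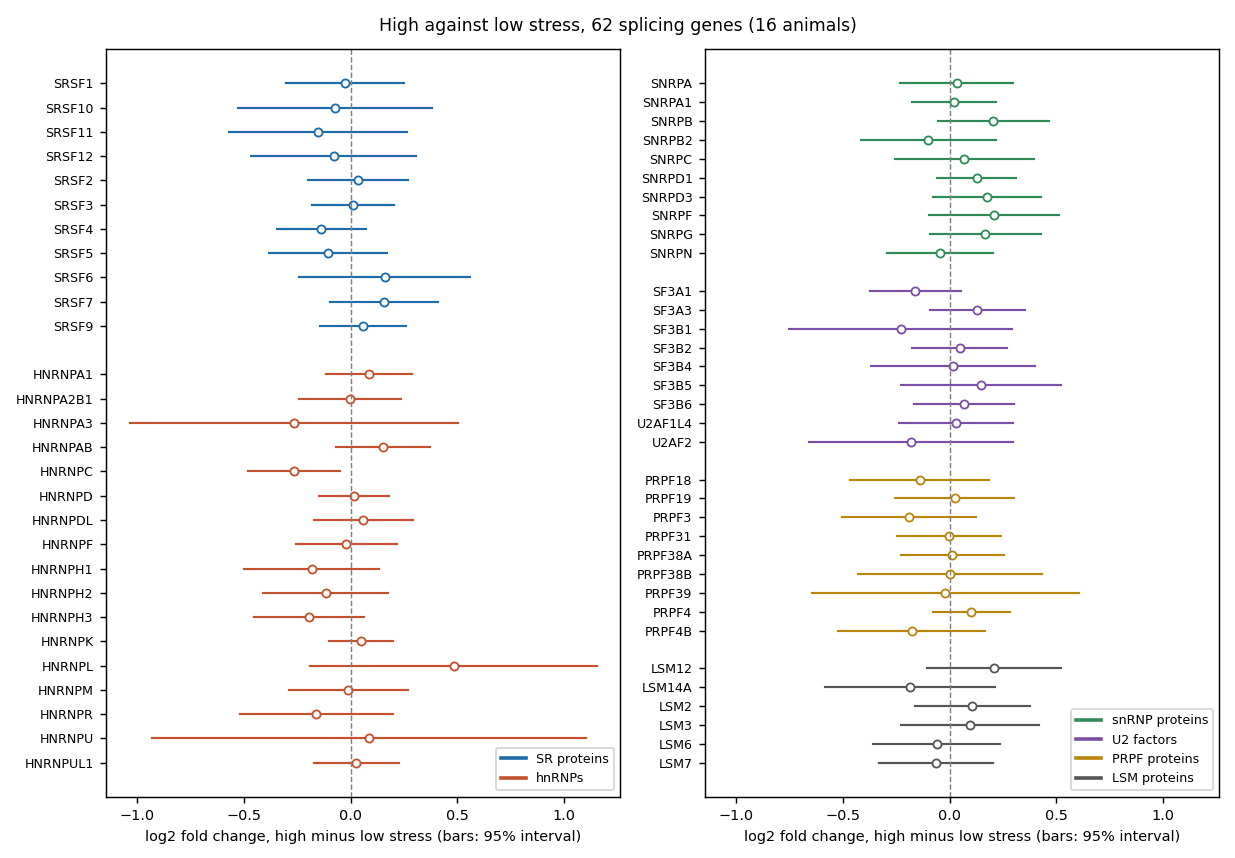
Log2 fold change of each of the 62 splicing genes, high minus low stress, with its 95% interval from limma over 16 animals, coloured by role; an open circle is a gene with an adjusted p of 0.05 or more. Every circle is open, and HNRNPC is the gene whose interval, -0.48 to -0.05, does not include 0.

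Among the SR proteins, 5 of 11 were higher and 6 lower, with a median of -0.03, and 0 had an unadjusted p under 0.05. SRSF4, a splicing regulator with a long arginine-serine domain, had log2 signals of 10.56 (lowest), 10.66 (median) and 10.87 (highest) in low stress and 10.28, 10.49 and 10.87 in high stress. Its difference was -0.14 (SE 0.10, unadjusted limma p 0.185), and it was -0.29 on low-spike and 0.02 on high-spike arrays. The groups overlapped, though the high stress median lay below the lowest low stress value. SRSF7, which also serves in RNA export, ran from 11.74 over 12.01 to 12.35 in low stress and from 11.74 over 12.26 to 12.54 in high stress. The difference of 0.16 (SE 0.12, unadjusted limma p 0.213) had 6 of 8 high stress animals above the low stress mean. It was 0.29 on low-spike and 0.03 on high-spike arrays.

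SRSF1, a prototype of the SR proteins, and SRSF3, a small one that also binds export factors, lay close together in both groups. SRSF1 averaged 10.93 ± 0.25 (SD, n = 8) in low stress and 10.90 ± 0.26 (n = 8) in high stress, a difference of -0.03 with an interval of -0.30 to 0.25. SRSF3 averaged 12.25 ± 0.13 and 12.26 ± 0.15 (n = 8 each), and its interval ran from -0.18 to 0.20. SRSF2, which acts in both constitutive and regulated splicing, differed by 0.04 (interval -0.20 to 0.27), and SRSF10, an atypical member of the family, by -0.07 (-0.53 to 0.38).

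The hnRNPs held both the smallest p and the widest spreads. Of 17, 8 were higher and 9 lower in high stress, with a median of -0.00. HNRNPC, which binds uridine tracts of nascent RNA and keeps the U2AF complex off cryptic exons, had log2 signals of 12.28 (lowest), 12.55 (median) and 12.61 (highest) in low stress. In high stress it had 11.85, 12.29 and 12.60, so that 7 low stress animals sat in a narrow band near the top and 7 high stress animals lay below that band. The high stress mean was 12.25 ± 0.23 and the low stress mean 12.51 ± 0.10 (SD, n = 8 each). The difference was -0.27 (SE 0.10, interval -0.48 to -0.05, unadjusted limma p 0.0184), and 1 of 8 high stress animals exceeded the low stress mean. An unadjusted p under 0.05 with a lower value was found for 1.36% of all genes. Within the sets the HNRNPC difference was -0.23 on low-spike and -0.30 on high-spike arrays, and with the set as a block the unadjusted p was 0.0129 and the adjusted p 0.733. A dimmer HNRNPC probe set (mean log2 6.93) differed by -0.13 with an unadjusted p of 0.525.

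HNRNPL, which binds CA-rich elements, had the largest difference in size, 0.48 (SE 0.32, interval -0.19 to 1.15), and also one of the widest ranges. Low stress animals ran from 9.83 over 11.11 to 11.57, and high stress animals from 10.06 over 11.44 to 12.23. Both spike-in sets were spread as widely, from 9.83 to 11.68 on low-spike and from 10.12 to 12.23 on high-spike arrays. The difference was 0.13 on low-spike and 0.83 on high-spike arrays. HNRNPH3, of the family that binds G-rich tracts, ran from 10.37 over 10.72 to 11.04 in low stress and from 10.24 over 10.50 to 10.88 in high stress, a difference of -0.20 (SE 0.12, unadjusted limma p 0.128). HNRNPAB, an hnRNP of the A/B type, had 11.52, 11.82 and 12.18 in low stress, then 11.76, 11.95 and 12.25 in high stress, which is 0.15 higher (SE 0.10, unadjusted limma p 0.161). Both pairs of groups overlapped over most of their range.

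HNRNPA1 and HNRNPA2B1, abundant A/B-type hnRNPs that bind UAG motifs, differed by 0.09 (interval -0.11 to 0.29) and -0.00 (-0.24 to 0.23). HNRNPK, which binds C-rich sequences, was the steadiest of the 62, with 13.04 ± 0.07 in low and 13.09 ± 0.07 in high stress (SD, n = 8 each), an interval of -0.10 to 0.20. HNRNPD, also called AUF1, came next with an SD within stress groups of 0.10 and a difference of 0.02.

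The snRNP proteins were the group most often higher in high stress, 8 of 10 with a median of 0.10. None had an unadjusted p under 0.05 without the block. SNRPB, the Sm protein B of the common ring, ran from 10.31 over 10.70 to 11.12 in low stress and from 10.55 over 10.91 to 11.15 in high stress. Its difference of 0.21 (SE 0.12, unadjusted limma p 0.111) had 7 of 8 high stress animals above the low stress mean. The further ring proteins SNRPD1, SNRPD3, SNRPF and SNRPG differed by 0.13, 0.17, 0.21 and 0.17, with 7, 6, 6 and 5 of 8 high stress animals above the low stress mean. The SNRPF difference was 0.37 on low-spike and 0.04 on high-spike arrays, and that of SNRPD1 was 0.08 and 0.17. SNRPG ran from 11.71 over 11.91 to 12.25 in low stress and from 11.76 over 12.17 to 12.39 in high stress. In both stress groups its high-spike arrays lay below its low-spike arrays. A dimmer SNRPG probe set differed by 0.08 between the stress groups.

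With the spike-in set as a block, SNRPB, SNRPD3 and SNRPG reached unadjusted p-values of 0.0480, 0.0486 and 0.0439, each with an adjusted p of 0.782. A higher value with an unadjusted p under 0.05 was found in that fit for 3.39% of all genes, and a lower one, as for HNRNPC, for 2.8%. Over all alternatives the lowest adjusted p of the 3 Sm genes was 0.308. The difference of SNRPB was 0.25 on low-spike and 0.16 on high-spike arrays, that of SNRPD3 0.22 and 0.13, and that of SNRPG 0.19 and 0.14. Mean log2 signals of smooth muscle markers (6 of 7 measured) were 0.21 higher in high stress, with ranges of 8.88 to 10.25 in low and 9.29 to 10.36 in high stress. Those of adipocyte markers (3 of 4, with 2 above the filter) were 0.78 lower, with ranges of 5.88 to 6.93 and 4.32 to 6.58. The adipocyte means, 6.40 in low and 5.62 in high stress, lay near the filter of 6.15. The part of smooth muscle cells and adipocytes in the differences of these splicing genes was not tested. SNRPN, the Sm protein N of an imprinted locus, differed by -0.04, and SNRPC, a U1-specific protein, by 0.07 (intervals -0.29 to 0.21 and -0.25 to 0.39). SNRPB and SNRPN encode nearly the same protein, and the probe sequences were not used here, so signal shared between them cannot be told apart.

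**Figure D2:**
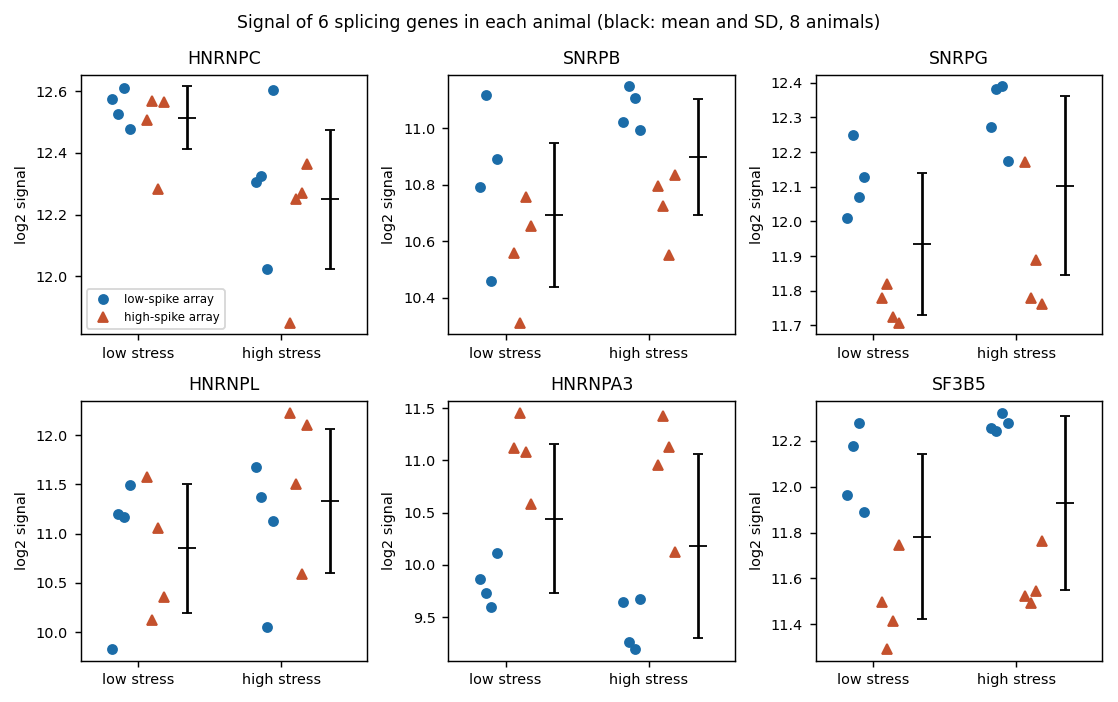
Log2 signal of HNRNPC, SNRPB, SNRPG, HNRNPL, HNRNPA3 and SF3B5 in each animal by stress group, circles for low-spike and triangles for high-spike arrays; black bars are the mean and SD of 8 animals. Stress groups overlap in every panel, while circles and triangles part completely for HNRNPA3 and SF3B5 and do not part for HNRNPC or HNRNPL.

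U2 factors were higher in 6 of 9 cases, with a median of 0.03. SF3A1, a subunit of the SF3A trimer, had 9.85, 10.19 and 10.31 in low stress and 9.71, 10.03 and 10.20 in high stress (lowest, median, highest). Its difference was -0.16 (SE 0.10, unadjusted limma p 0.131), and among high stress animals 1 of 8 was above the mean of low stress. SF3A3, the trimer's zinc finger subunit, went the other way by 0.13 (SE 0.11), with values of 11.06, 11.34 and 11.50 against 11.16, 11.50 and 11.65. SF3B1, the large branch-point subunit, differed by -0.23 with a wide interval of -0.75 to 0.29, and its partner SF3B2 by 0.05 (-0.18 to 0.27). A dimmer SF3B1 probe set differed by 0.04. SF3B5, the smallest SF3B subunit, differed by 0.15 (-0.23 to 0.52). U2AF2, which binds the polypyrimidine tract, was the dimmest member, with values from 5.78 to 6.997 in low and from 5.09 to 6.73 in high stress and a difference of -0.18 (-0.66 to 0.30).

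PRPF and LSM proteins gave no more than this. Of the 9 PRPF proteins 4 were higher. PRPF3, of the U4/U6 particle, had 8.35, 8.62 and 9.13 in low stress and 8.01, 8.39 and 8.96 in high stress, a difference of -0.19 (SE 0.15). Its partners in that particle, PRPF4 and PRPF31, differed by 0.10 (interval -0.08 to 0.28) and -0.00 (-0.25 to 0.24). Among the 6 LSM proteins, 3 were higher. LSM12, a family member outside the U6 ring, ran from 7.93 over 8.47 to 8.84 in low stress and from 8.18 over 8.62 to 9.12 in high stress, which gave 0.21 (SE 0.15, unadjusted limma p 0.184), with 7 of 8 high stress animals above the low stress mean. A dimmer LSM12 probe set differed by -0.04. LSM14A, a P-body protein, differed by -0.19 (SE 0.19).

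The stress difference was also compared between the spike-in sets with an interaction term. No member passed (0 of 62 by limma, with 0% of all genes called). At an unadjusted p under 0.05 there was LSM3 alone, a U6 ring protein named after its value was seen, against 2.29% of all genes. Its difference was 0.41 on low-spike and -0.22 on high-spike arrays (unadjusted p 0.0222).

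Of a list of 124 other parts of the splicing machinery, 75 lay above the filter and were tested. They were helicases, kinases, exon junction and SMN complex proteins and further regulators, and gave 0 genes past the threshold by limma. Of these 29 were higher and 46 lower in high stress, with a median of -0.05, and 1 had an unadjusted p under 0.05. That was DDX20, a helicase of the SMN complex, which loads Sm rings. It ran from 8.83 over 8.92 to 9.14 in low stress and from 8.65 over 8.73 to 9.06 in high stress, a difference of -0.20 (SE 0.09, unadjusted limma p 0.0366). Next came DDX46, a helicase at the U2 snRNP, with -0.37 (SE 0.21), WDR77, a cofactor of the methyltransferase that modifies Sm proteins, with 0.13 (SE 0.08) and GEMIN5, which recognises snRNAs, with -0.18 (SE 0.10). For DDX20, DDX46, WDR77 and GEMIN5, values above the mean of low stress were found in 1, 3, 8 and 1 of 8 high stress animals. With the spike-in set as a block, 3 of the 75 had an unadjusted p under 0.05, against 6.2% of all genes. All 3 were lower in high stress, as were 2.8% of all genes at that level. They were DDX20, CLK1 (-0.40) and U2SURP (-0.55), with unadjusted limma p-values of 0.0143, 0.0211 and 0.0265. On low-spike and high-spike arrays DDX20 differed by -0.17 and -0.23, CLK1 by -0.71 and -0.10, and U2SURP by -0.73 and -0.36. The interaction of stress and set had an unadjusted limma p under 0.05 in 4 of the 75, against 2.29% of all genes. After adjustment 0 of the 75 passed.

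Variation among animals of 1 stress group was unevenly shared out among the members. The median SD within stress groups was 0.25, beside 0.28 over all genes. At the top stood HNRNPU, a nuclear scaffold protein, with 1.07, HNRNPA3, a close relative of HNRNPA2B1, with 0.80, HNRNPL with 0.70, PRPF39, a U1-associated factor, with 0.65, SF3B1 with 0.53 and U2AF2 with 0.49. At the bottom, HNRNPK and HNRNPD were followed by PRPF4 and SNRPD1, both with 0.13. HNRNPU and U2AF2 were also the members nearest the filter on low signal. Much of the spread of some members lay between the spike-in sets. Within stress group and spike-in set the SD was 0.37 for HNRNPA3, 0.34 for PRPF39, 0.27 for SF3B1 and 0.38 for U2AF2, while it was 0.88 for HNRNPU and 0.72 for HNRNPL. The median of these SDs was 0.19 over the members, beside 0.23 over all genes.

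The spike-in sets separated the splicing genes far more than stress did. Between high-spike and low-spike arrays, with stress as a further term, 31 of 62 members passed (limma, adjusted p under 0.05), beside 40.6% of all genes and 40.1% of all probe sets. Of these 15 were higher on high-spike arrays (16.4% of all genes) and 16 lower (24.2% of all genes), a split that was 18 and 17 after quantile normalization and 11 and 28 after median centring. All-gene signals were themselves shifted, with a median difference of -0.11 in the deposited scaling, -0.14 after quantile normalization and -0.25 after median centring, while the members' median was -0.01. In both other scalings no called member turned its sign, and 30 and 27 of the 31 were called again. Quantile normalization ended the call of HNRNPUL1, and median centring those of SRSF2, HNRNPH3, HNRNPM and HNRNPR. The sets did not overlap in 7 of 62 members, beside 6.21% of all genes: HNRNPA3, HNRNPU, SRSF10 and PRPF18 with higher values and SF3B5, SNRPC and LSM7 with lower values on high-spike arrays. Leaving out 1 animal at a time kept 24 of the 31 in every fit. The other 7, HNRNPH3, HNRNPUL1, PRPF38A, SNRPA, SNRPN, SRSF2 and U2AF1L4, had adjusted p-values of 0.0288 to 0.0490 with all animals and of up to 0.0980 with 1 left out.

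**Figure D3:**
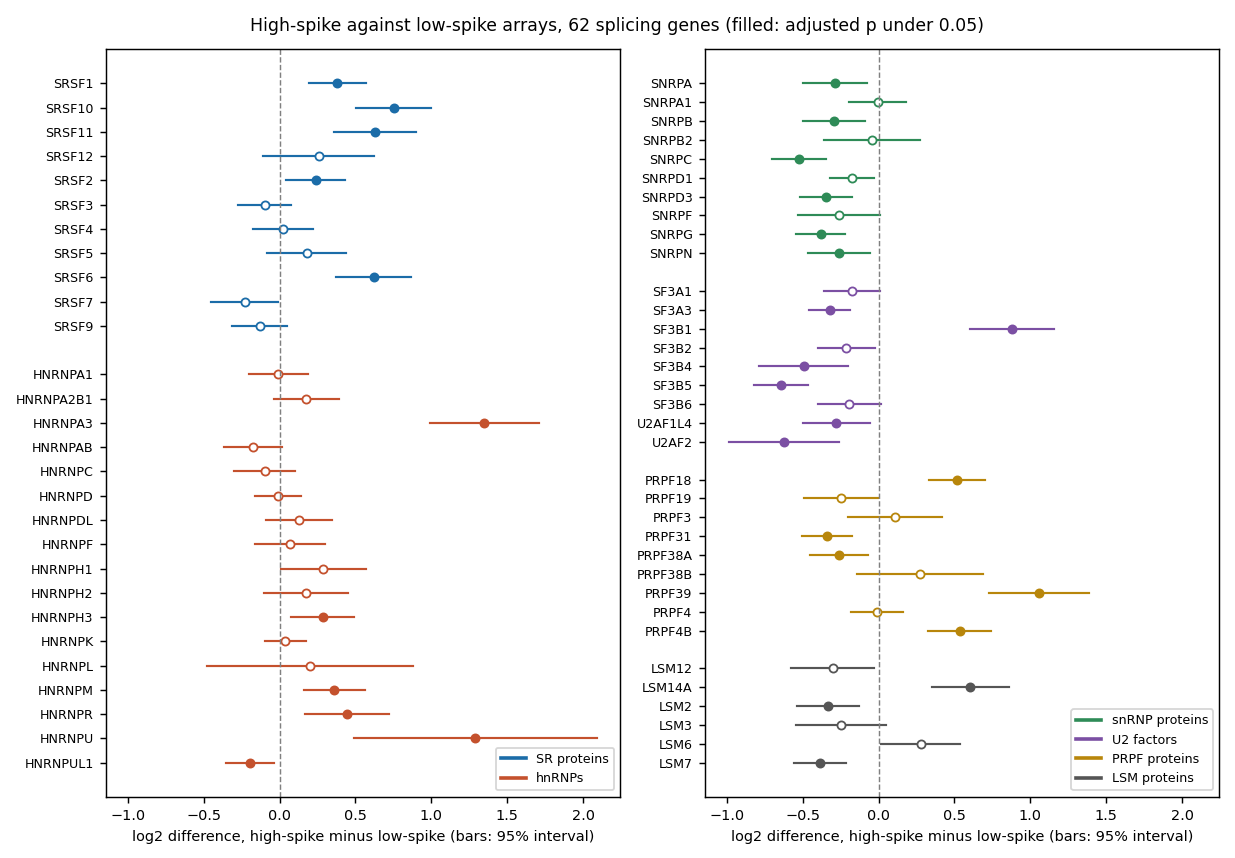
Log2 difference of each of the 62 splicing genes, high-spike minus low-spike arrays, with its 95% interval from limma with stress as a further term; filled circles are the 31 genes with an adjusted p under 0.05. The called SR proteins all lie to the right of 0 and the called snRNP proteins all to the left.

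By role, the called genes went different ways. Of all genes, 16.4% were called higher and 24.2% lower on high-spike arrays. The share called in either direction was 45.5% of SR proteins and 35.3% of hnRNPs, beside 40.6% of all genes. Of 11 SR proteins, 5 rose on high-spike arrays and 0 fell, with a group median of 0.24. SRSF10 had 9.48, 9.99 and 10.22 on low-spike arrays and 10.32, 10.73 and 11.05 on high-spike arrays (lowest, median, highest), a difference of 0.75 (SE 0.12, 1.69-fold, adjusted limma p 0.000166). SRSF1, SRSF2, SRSF6 and SRSF11 rose by 0.38, 0.24, 0.62 and 0.63, but SRSF2 differed by 0.10 after median centring (adjusted limma p 0.386). Of 17 hnRNPs, 5 rose by their brightest probe sets and 1, HNRNPUL1, fell by 0.20. HNRNPA3 had the largest difference of all members, 1.35 (SE 0.17, 2.55-fold, adjusted limma p 4e-05). Its values were 9.19, 9.66 and 10.12 on low-spike arrays and 10.13, 11.10 and 11.46 on high-spike arrays. HNRNPU rose by 1.29, HNRNPR by 0.45, HNRNPM by 0.36 and HNRNPH3 by 0.29. After median centring the last 3 differed by 0.31, 0.23 and 0.15 (adjusted limma p 0.0504, 0.0790 and 0.229), so that 2 hnRNPs were called higher, and after quantile normalization 8 were. The number of hnRNPs with a value above 0 depended on the scaling, 12 of 17 as deposited, 15 after quantile normalization and 9 after median centring. For SR proteins the counts were 8, 10 and 7 of 11.

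The snRNP proteins were lower on high-spike arrays in 10 of 10 cases, beside 3437 of 5455 genes, and 6 of them fell past the threshold. The count of 10 was the same after quantile normalization and after median centring. It was 9 with the actin ratio as a covariate and 8 with array weights, without low stress replicate 8 or without high stress replicate 7, and 9 or 10 without any other single animal. Their median was -0.28. SNRPC had 11.41, 11.56 and 11.77 on low-spike arrays and 10.72, 11.07 and 11.23 on high-spike arrays, so that it fell by 0.52 (SE 0.08, 1.44-fold lower, adjusted limma p 0.000223). SNRPA, SNRPB, SNRPD3, SNRPG and SNRPN fell by 0.29, 0.29, 0.35, 0.38 and 0.26. U2 factors were lower in 8 of 9 cases, and 5 of them fell past the threshold. Of all genes, 24.2% were called lower. SF3B5 had 11.89, 12.25 and 12.32 on low-spike arrays and 11.29, 11.51 and 11.76 on high-spike arrays, and fell by 0.64 (SE 0.08, 1.56-fold lower, adjusted limma p 5.37e-05). SF3A3, SF3B4, U2AF1L4 and U2AF2 fell by 0.32, 0.49, 0.28 and 0.62.

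SF3B1 was the U2 factor that rose. The other SF3B subunits SF3B2 and SF3B6 differed by -0.21 and -0.19 and did not pass (adjusted limma p 0.0647 and 0.129). SF3B1 values were 10.11, 10.35 and 10.89 on low-spike arrays and 10.56, 11.38 and 11.64 on high-spike arrays, a difference of 0.88 (SE 0.13, 1.84-fold, adjusted limma p 0.000120). Of the PRPF proteins, PRPF39 rose by 1.06 (SE 0.16, 2.08-fold, adjusted limma p 0.000122), from values of 7.76, 8.03 and 8.58 to 8.49, 9.18 and 9.497. PRPF18, a factor of the second catalytic step, rose by 0.52 and the kinase PRPF4B by 0.54, while PRPF31 and PRPF38A fell by 0.34 and 0.26. LSM14A rose by 0.61, and LSM2 and LSM7 of the U6 ring fell by 0.33 and 0.39. Of the 75 other splicing genes 35 differed (17 higher and 18 lower, 46.7%), beside 40.6% of all genes (16.4% higher and 24.2% lower).

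Other measures moved with the sets. With the 3′ to 5′ actin ratio as a further covariate 0 of 62 members and 17 of 14399 probe sets differed between the sets by limma, and 9 members and 2022 probe sets had an unadjusted p under 0.05. Since the ratio did not overlap between the sets, it and the set cannot be told apart. Smooth muscle markers averaged 9.71 to 10.36 on low-spike and 8.88 to 9.92 on high-spike arrays, a difference of -0.54. Fibroblast and capsule markers (4 of 6 measured, 3 above the filter) ranged from 7.53 to 8.38 and from 8.24 to 8.78, a difference of 0.37. Cortex markers differed by -0.15 and chromaffin markers by -0.04. Their part in the splicing genes' differences was not tested.

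**Figure D4:**
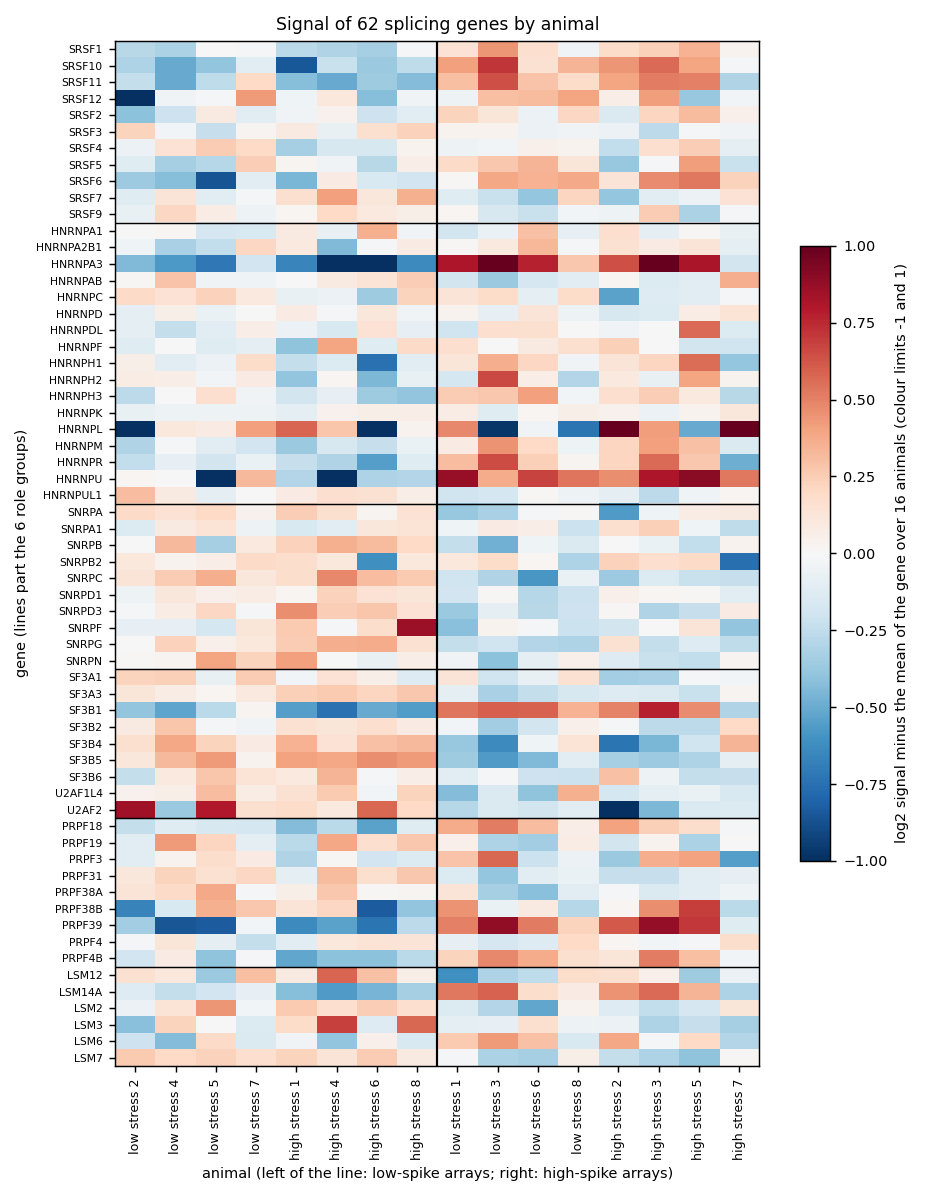
Log2 signal of the 62 splicing genes in each of 16 animals minus the mean of the gene, with genes in rows by role and animals in columns; colours are capped at -1 and 1, and the vertical line parts low-spike from high-spike arrays. HNRNPA3, SF3B1 and PRPF39 are mostly blue left of the line and red right of it, SF3B5 and SNRPC show the opposite, and low and high stress columns do not part.

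Several probe sets of a gene allowed a check on single values. Of 62 members 41 had 1 probe set and 21 several, and in 18 more than 1 was tested. Stress differences were of 1 sign in 10 of the 18 and of both signs in 8. Set differences were of 1 sign in 13 and of both signs in 5, namely HNRNPA2B1, HNRNPC, HNRNPH2, LSM6 and SRSF1. No gene was called in both directions. In some genes a dimmer probe set was called where the brightest was not. It was lower in HNRNPD (-0.20), HNRNPH2 (-0.59) and HNRNPA2B1 (lowest difference -0.34). It was higher in HNRNPC (0.58), HNRNPDL (0.60) and PRPF38B (1.04). The count of called hnRNPs by direction thus depends on the probe set taken. All 6 probe sets of SRSF6 rose on high-spike arrays, by 0.36 to 0.96, and all 4 tested of SRSF10, by 0.35 to 1.40. Both of SF3B1 rose, by 0.88 and 0.99, and both of SNRPN fell, by 0.26 and 0.46. In SRSF1 the differences of the 3 probe sets were 0.38, 1.22 and -0.27, with the last not called (adjusted limma p 0.0824). The positions and sequences of the probes were not analysed here.

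**Figure D5:**
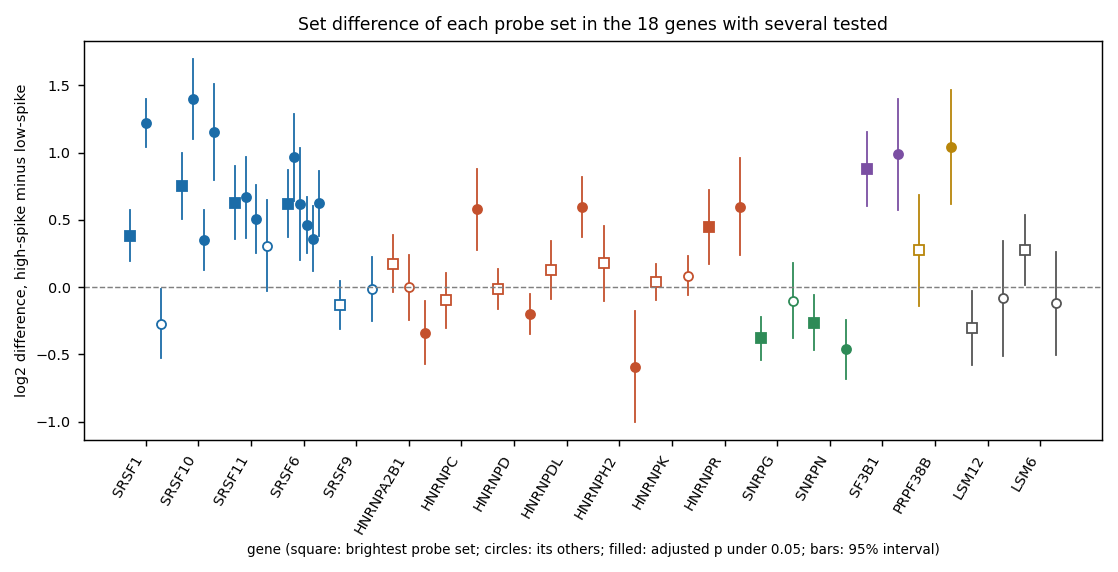
Log2 difference, high-spike minus low-spike arrays, of every tested probe set in the 18 genes with more than 1, with 95% intervals; squares are the brightest probe set of the gene and filled symbols have an adjusted p under 0.05. SRSF6 and SRSF10 lie wholly above 0, while SRSF1 and HNRNPH2 spread to both sides.

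Covariation was described within each spike-in set, since the sets stand apart. The median Pearson r over all pairs of members across 8 arrays was 0.03 on low-spike and 0.00 on high-spike arrays, beside 0.00 and 0.02 over all pairs of tested genes. All values of an array share its RNA and its scaling. Pairs of SR proteins had medians of 0.16 and 0.15. For PRPF proteins the median was 0.28 on low-spike and -0.09 on high-spike arrays, and for U2 factors -0.12 and 0.14. LSM proteins had -0.28 and -0.13, and the hnRNPs and snRNP proteins lay between -0.09 and 0.05.

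Of 11 pairs listed for partnership or kinship, 7 had both genes measured, which gave 14 tests over the sets. None passed after Benjamini-Hochberg adjustment over the 14. HNRNPA1 and HNRNPA2B1 had r = 0.846 on high-spike arrays (exact permutation p 0.00717, adjusted 0.0590; rho 0.786, exact permutation p 0.0279, adjusted 0.391). Without the 2 arrays farthest from the HNRNPA1 median r was 0.405, and on low-spike arrays it was 0.144 (exact permutation p 0.755). SF3B1 and SF3B2 ran against each other on high-spike arrays with r = -0.784 (exact permutation p 0.00843, adjusted 0.0590; rho -0.714, exact permutation p 0.0576), and r was -0.626 without the 2 arrays farthest from the SF3B1 median. On low-spike arrays r was -0.687 (exact permutation p 0.0606), and 0.014 without the corresponding 2 arrays, so that it rests on those. The remaining pairs, SF3A1 with SF3A3, HNRNPC with HNRNPK, SRSF1 with SRSF2, SRSF3 with SRSF7 and PRPF4 with PRPF31, had r between -0.354 and 0.603 and adjusted exact permutation p-values of 0.391 or more.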

How the data were processed

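The authors deposited 1 column of linear intensity per array, computed by MAS5; the submitters' processing notes name Affymetrix Expression Console, version 1.1.1. Scanner files and present calls were not analysed here. Each column had a mean of 500 once 2% of probe sets were trimmed at either end. Values were taken to log2 and 124 controls set aside. Of 23999 probe sets, 10069 had 1 symbol, 198 several and 13732 none; all 62 members matched the reference gene table (Sscrofa11.1, names only) by gene number. Members had 97 probe sets, of which 90 passed the filter at the 40th percentile of mean log2 signal.

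The test was limma (version 3.58.1, under R 4.3.3; lmFit, eBayes, two-sided, Benjamini-Hochberg over 14399 probe sets, adjusted p under 0.05). The 95% intervals come from the same fits. The spike-in sets were cut at the widest gap of the mean log2 dap signal (2.53, the next widest 0.37). Pairs were tested by exact permutation. Alternatives were other filters, scalings and variance priors, a pseudocount of 32, blocks, the actin ratio as a covariate, each set alone, probe sets averaged per gene, and leaving out each animal. The limma fit for stress was checked on simulated data that held no difference between the spike-in sets. That check did not cover the set comparison or the interaction. Plots used matplotlib 3.10.9 (Python 3.11.15).

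Members, lists, spike-in sets and tests were chosen with earlier results of these data known. Named were the 12 smallest p for stress, the 2 smallest per role, the 6 smallest for the sets, and the 6 highest and 4 lowest SD. Also named were 11 well known members (9 measured), genes of the listed pairs, and 4 other splicing genes. Further members called between the sets, LSM3, CLK1 and U2SURP were named after their values were seen. So were genes of the probe set check, the flagged animals and the leave-out check. The animals carry separate numbers in the labels, and replicate numbers were given in accession order.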

Additional observations from a re-analysis of the deposited data

Results flagged for a closer look

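In 10 of 124 groups (62 genes, each in 8 low stress and 8 high stress animals) 1 animal stood apart from the rest of its group by Dixon's ratio, which by chance happens in about 1 of 20 groups. HNRNPU, with a log2 signal of 3.50 in low stress replicate 5, lay far below the 6.63 to 7.504 of the other low stress animals. SRSF12 was 6.07 in low stress replicate 2 (others 7.03 to 7.52). HNRNPC was 12.28 in low stress replicate 6 (others 12.48 to 12.61), and HNRNPA1 was 12.82 in the same animal (others 12.34 to 12.54). HNRNPH2 reached 10.62 in low stress replicate 3 (others 9.67 to 10.04). SNRPB2 was 9.499 in low stress replicate 8 (others 9.83 to 10.003). In high stress, SNRPN reached 11.37 in replicate 1 (others 10.71 to 11.02) and HNRNPDL 12.48 in replicate 5 (others 11.76 to 12.06). SNRPA was 9.21 in high stress replicate 2 (others 9.74 to 10.03), and HNRNPA2B1 was 12.69 in high stress replicate 4 (others 13.05 to 13.29). Of these genes, HNRNPU, SNRPA and SNRPN were called between the spike-in sets. Without low stress replicate 5 the HNRNPU set difference was 0.91, and it was called in all 16 fits that left out 1 animal.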

How the results depend on the processing

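Members past the threshold for stress stayed at 0 under all 31 alternatives tried, by limma. Over all probe sets the count was 1 with the spike-in set as a block, 1 with that block and quantile normalization, 1 with the actin ratio as a covariate and 1 with that covariate and the block, and 0 under the rest. The members' median log2 fold change was 0.00 to 0.03 with each animal left out and moved to 0.088 under median centring, which also set the median of all genes at 0.07 and HNRNPK at 0.12. Of 35 named members, 23 kept their sign under every alternative and 12 changed it under at least 1 (70 of 1082 values); HNRNPC ranged from -0.32 to -0.19. Between the sets the count of 31 members ranged from 25 to 34 with each animal left out and from 24 to 39 under the other settings, except for 0 with the actin ratio as a covariate, which does not overlap between the sets. No paired analysis was possible because the labels give no replicate numbers. The animal numbers in the titles begin with a digit that recurs in both groups, whose meaning is not given; with it as a block 0 members were called for stress and 29 between the sets. Arrays of 8 animals a group limit the precision, most of all for HNRNPU and U2AF2, whose signals lay near the filter.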
